A study of Mus musculus with 11 samples.

Results

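The genes described here are the mouse genes of the Srsf, Hnrnp and Rbm families, which encode splicing factors and other RNA-binding proteins. They were chosen by symbol: protein-coding genes of mm10 whose symbol starts with Srsf or Rbm and a digit, or with Hnrnp. This gave 70 of 21887 protein-coding genes, of which 11 were Srsf, 21 Hnrnp and 38 Rbm genes. The families were proposed after the peak calls at their genes were known, so every count and fold enrichment at these genes is a description, and no test was made of them.

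Transcripts are spliced by the spliceosome, and the choice of splice sites is steered by proteins that bind the transcript. SR proteins, encoded by the Srsf genes, mostly bind exons and help splice sites to be recognised, while hnRNP proteins, encoded by the Hnrnp genes, coat nascent RNA and often counter them. The Rbm symbol only records an RNA-recognition motif, and its genes range from spliceosome parts to RNA decay, RNA methylation and ribosome assembly factors. H3K4me3, trimethylated lysine 4 of histone H3, marks the promoters of active genes, and WDR5 is a subunit shared by the MLL and SET1 enzymes that write it. P53 is the tumour suppressor transcription factor.

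The study profiled WDR5, P53 and H3K4me3 by CUT&RUN, in which an antibody on chromatin directs a nuclease to release the bound DNA, in mouse embryoid bodies at day 2 of SFEBq differentiation towards anterior neural tissue. All groups came from embryonic stem cells with GFP knocked into Rx, were grown with 5% KSR, had doxycycline removed at day 0 and received 2% matrigel at day 1. The labels do not say what doxycycline controlled or how many clones stood for each genotype. Cells were wild type (WT), lacked Wdr5 (knockout, KO) or lacked both Wdr5 and p53 (double knockout, DKO). H3K4me3 had 1 list of peaks in each genotype, and WDR5 and P53 had 2 lists each in WT and in DKO.

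The WT, KO and DKO H3K4me3 lists held 9836, 918 and 6418 peaks from 34.2, 22.3 and 43.2 M (mega) fragments, so the KO list was the shortest and the shallowest. The 4 WDR5 lists held 166 to 725 peaks and the 4 P53 lists 99 to 396. In 3 of the 4 list pairs, 75.3% to 80.3% of the summits in list 2 had the exact position of one in list 1. In the other pair, DKO P53, the share was 10.6%, and whether its lists are separate libraries was not settled. No pair was counted as replicates. The difference between genotypes has no replicate check in any antibody. The stem cell gene Pou5f1 had H3K4me3 peaks in all 3 genotypes, at fold enrichments of 4.85, 4.64 and 4.93 in WT, KO and DKO. Sox2, a gene of stem cells and neural progenitors, also had peaks in all 3 (3.69, 3.54 and 2.91). The anterior neural gene Otx2 had peaks in WT (3.97) and DKO (3.08) and none in KO, and the eye field gene Rax, the gene that carries the reporter, had none.

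A gene was called marked when a peak lay within 1000 bases of either end of its mm10 span. Each value below is the fold enrichment that the authors' peak caller gave to the gene's highest peak, which is the fragment pileup at the summit over the background of the same library. Values of different libraries are not scaled to each other, and the part of depth and of signal-to-background in their differences was not tested.

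WT H3K4me3 was called at 45 of the 70 genes (64.3%), against 35.5% of all protein-coding genes. By family, 8 of 11 Srsf genes (72.7%), 15 of 21 Hnrnp genes (71.4%) and 22 of 38 Rbm genes (57.9%) were marked. In KO, 11 of the 70 genes (15.7%) had a peak, against 3.20% of all protein-coding genes. DKO peaks lay at 37 genes (52.9%), against 22.8%. Each share was thus above its background in all 3 genotypes, and the KO count was the lowest in every family.

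**Figure D1:**
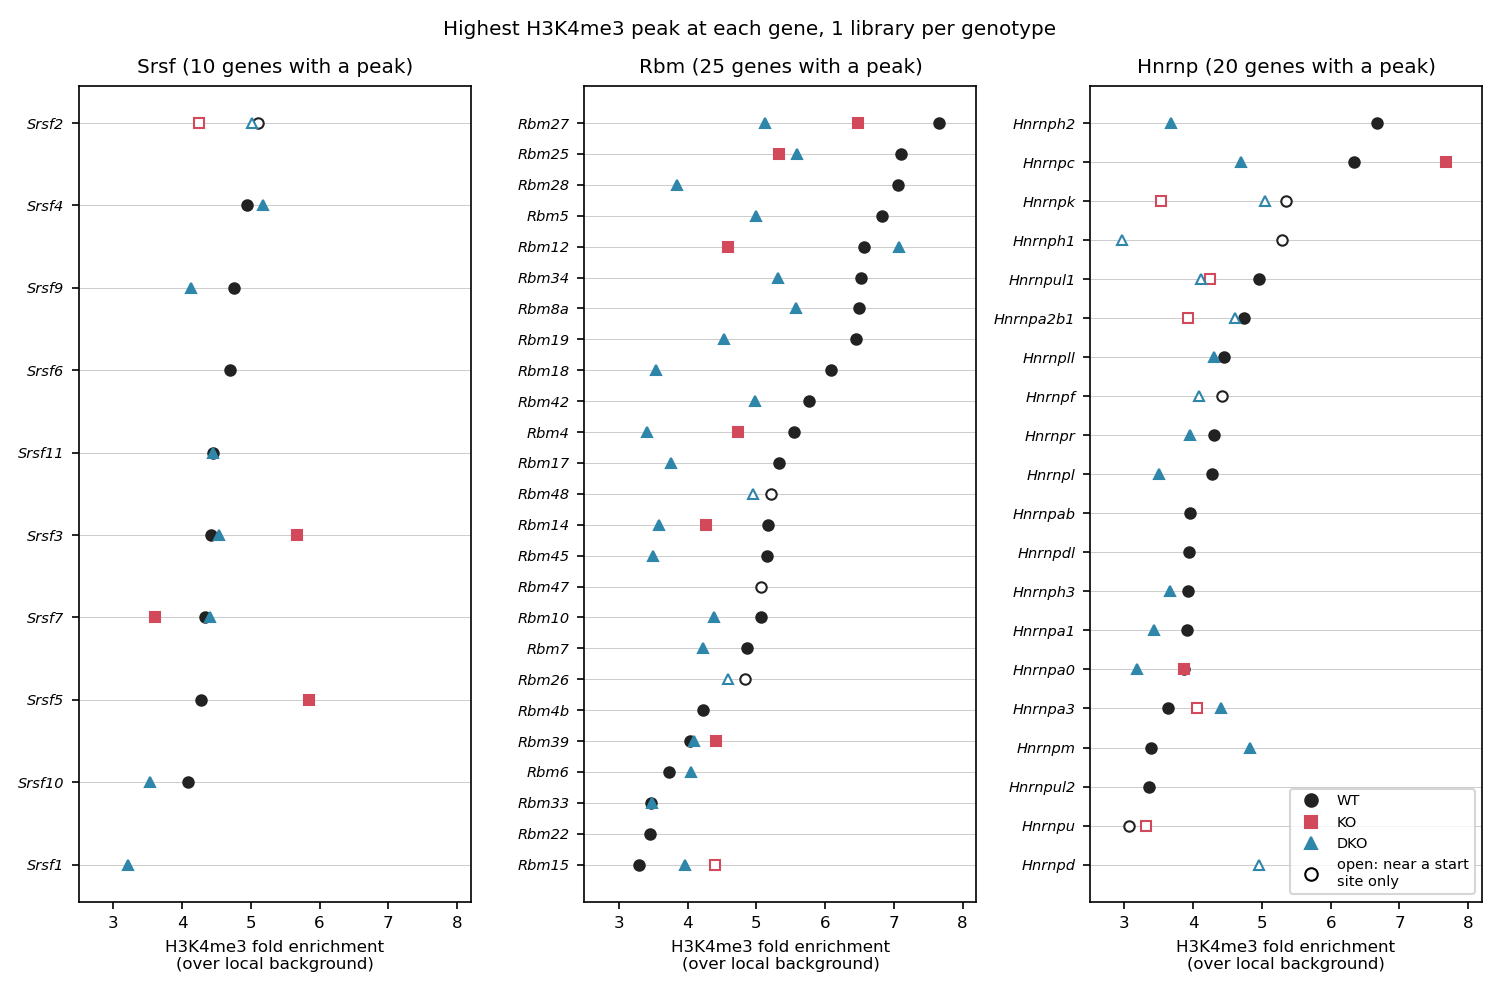
H3K4me3 fold enrichment (x axis) of the highest peak at a span end or start site of each Srsf, Rbm and Hnrnp gene with a peak; 1 row is 1 gene, circles are WT, squares KO and triangles DKO, with 1 library each. Filled symbols are genes with a peak within 1000 bases of a span end, and open ones have a peak only near an annotated start site; the highest values are those of Hnrnpc in KO (7.67) and Rbm27 in WT (7.66).

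Of the 45 genes marked in WT, 11 (24.4%) also had a KO peak, against 8.98% of all WT-marked protein-coding genes. In DKO 36 of the 45 (80.0%) had one, against 59.8%. Both knockouts kept a peak at 10 of the 45 genes (22.2%), against 8.46% of WT-marked genes, and 8 of the 45 (17.8%) had a peak in neither, against 39.7%. The families did not follow 1 order: the KO share was 37.5% in Srsf (3 of 8), 27.3% in Rbm (6 of 22) and 13.3% in Hnrnp (2 of 15). The DKO share was 75.0% in Srsf (6 of 8), 90.9% in Rbm (20 of 22) and 66.7% in Hnrnp (10 of 15). With 2 to 6 genes behind each KO share, 1 gene moves a family's figure widely. When each H3K4me3 list was held to its 918 highest peaks, the length of the KO list, 10 of the 70 genes were marked in WT, against 4.25% of all protein-coding genes, 11 in KO, against 3.20%, and 8 in DKO, against 4.03%. Of the 10 marked in WT, 4 were then called in KO, against 23.8% of all WT-marked genes, and 6 in DKO, against 37.4%.

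Genes with a higher WT peak were more often called in the knockouts, both among these families and among all genes. The genes called in KO had a median WT fold enrichment of 5.17 and those not called in KO one of 4.37, against 5.59 and 4.63 over all WT-marked genes. Those called in DKO had a median of 4.90 and those not called one of 3.96, against 5.06 and 4.27. The families were also compared with all WT-marked genes on each side of the median WT fold enrichment, which is a coarse split. Among genes at or under the median WT fold enrichment of 4.72, 5 of 24 splicing genes (20.8%) were called in KO, against 3.99% of all WT-marked genes of that height, and 16 of 24 (66.7%) in DKO, against 44.6%. Above that median, 6 of 21 (28.6%) were called in KO, against 14.0%, and 20 of 21 (95.2%) in DKO, against 74.9%. The shares stood above the background on both sides of that median and in both knockouts. Heights were not matched within a side, so the part of WT height in these shares was not tested.

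**Figure D2:**
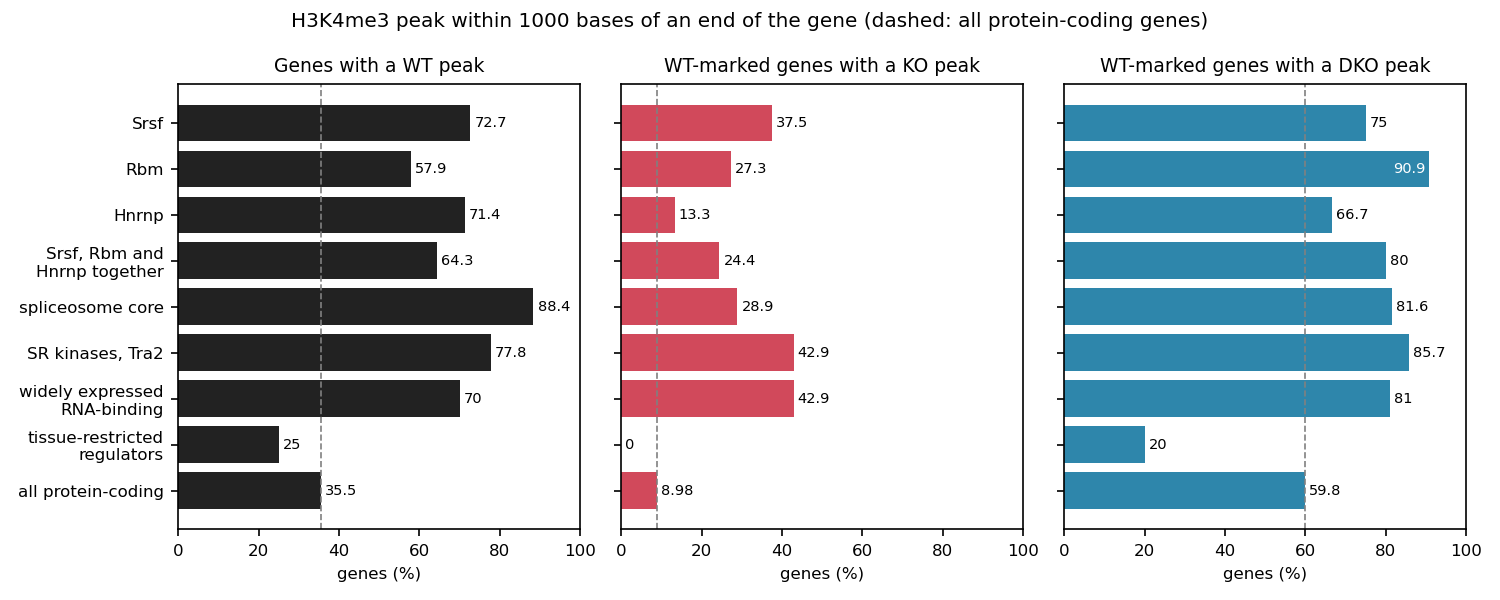
Percent of genes with a WT H3K4me3 peak within 1000 bases of a span end (left), and percent of those WT-marked genes that also had a KO (middle) or DKO peak (right), for the 3 families, all 70 genes together and 4 lists of other splicing genes that are described further on, where tissue-restricted regulators are those of neurons, muscle and epithelia; 1 library a genotype, with dashed lines at the background of all protein-coding genes. The bars for the 70 genes together, 64.3%, 24.4% and 80.0%, pass the dashed lines at 35.5%, 8.98% and 59.8%.

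The SR protein genes had even and moderate WT peaks, from 4.08 at Srsf10, a splicing repressor in its dephosphorylated form, to 4.94 at Srsf4, which encodes one of the longer SR proteins. Their median was 4.38, at the median percentile of 37.0 among all marked genes. Srsf3, which encodes the shortest SR protein, stood at 4.42 in WT, 5.67 in KO and 4.54 in DKO. Its WT peak ran over 2034 bases on chromosome 17, from 29032738 to 29034771, and was the longest at any of the 70 genes. Srsf3 was called in every genotype, and its KO value was the higher one.

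Srsf5 showed another pattern, with 4.27 in WT, 5.84 in KO and no peak in DKO. Its WT and KO peaks had the same edges, chromosome 12 from 80945554 to 80945913, and summits 194 and 189 bases downstream of the annotated start. In the KO list this peak ranked 161 of 918, and it was the highest KO value of the family. Srsf7, whose protein also takes part in mRNA export, had 4.33 in WT, 3.61 in KO and 4.40 in DKO. The KO peak of Srsf7 also lay within the window of Gemin6. Srsf4 (4.94 in WT, 5.17 in DKO), Srsf9 (4.75, 4.13), Srsf11 (4.28, 4.08) and Srsf10 (4.08, 3.53) were called in WT and DKO and not in KO. Srsf6 was called in WT alone, at 4.70.

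Srsf1, the best studied SR protein gene, was the 1 gene of the 70 (1.43%) with a knockout peak and no WT peak in its window, against 1.66% of all protein-coding genes. Its DKO peak had a fold enrichment of 3.22. The nearest WT peak, of 5.28, lay 2132 bases from its span end and 1258 from its annotated start, outside both windows. No peak of any genotype lay at Srsf12.

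Of the highest peaks, 6 of 8 in WT and 2 of 7 in DKO had their summit downstream of the nearest annotated start at Srsf genes, with median offsets of 236 and -359 bases. These sets differ, since Srsf1 is in the DKO set alone and Srsf5 and Srsf6 in the WT set alone. Of the 6 Srsf genes called in both, 3 had the summit downstream in WT and upstream in DKO, 1 upstream in both and 2 downstream in both. Over all protein-coding genes called in both, 16.0% of 3842 changed side, and among the 18 Rbm and 9 Hnrnp genes 0 and 3 did.

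The 3 Srsf genes were not alike. Srsf4 had the same pair of peaks in both genotypes, with summits at -443 and 213 bases in WT (4.34 and 4.94) and at -420 and 198 in DKO (5.17 and 3.60), so the order of their heights differed and not their places. At Srsf11 the WT peak, from 158036014 to 158037270 on chromosome 3, covered nearly all of the DKO peak, from 158036792 to 158037274, and the summits were at 259 and -543 bases. At Srsf10 the called peaks did not overlap, with summits at 1076 in WT and -683 in DKO. Srsf9 was upstream in both (-336 and -262), and Srsf3 (1244 and 666) and Srsf7 (842 and 1749) were downstream in both.

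**Figure D3:**
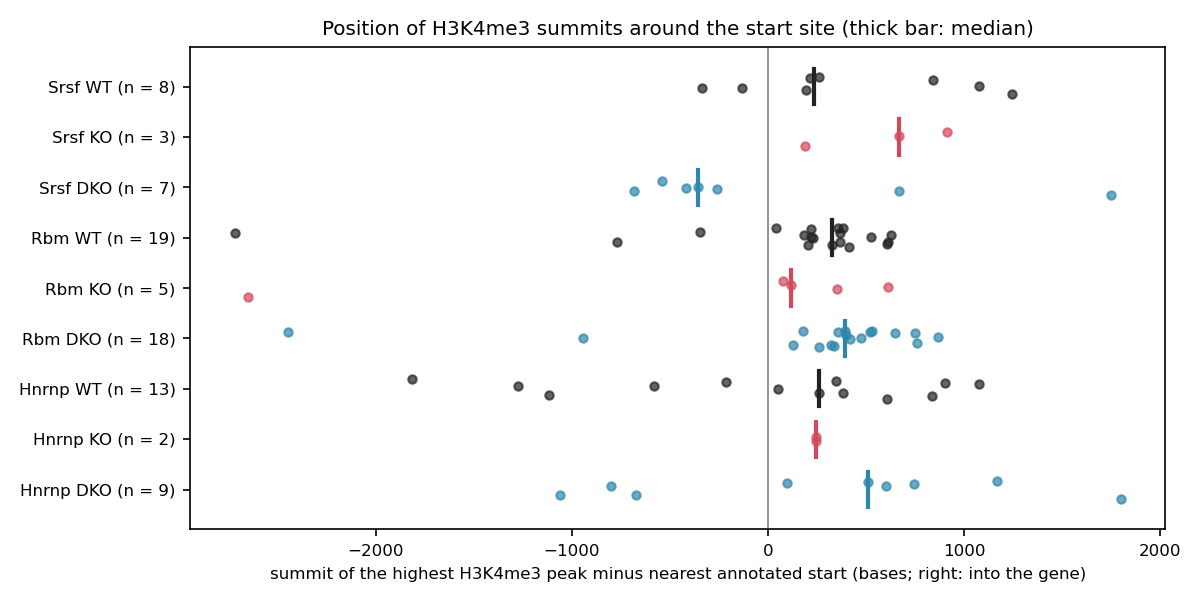
Distance in bases from the nearest annotated start site to the summit of the highest H3K4me3 peak at each gene, by family and genotype, with positive values downstream and bars at the median; 1 point is 1 gene. The Srsf median lies at 236 bases in WT and at -359 in DKO.

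At span ends the hnRNP genes had the lowest WT values of the 3 families, with a median of 3.94 and a median percentile of 19.4 among marked genes. Their WT marks were often split or shared. At least 2 WT peaks lay at 7 of the 15 marked Hnrnp genes (46.7%), 2 of 8 Srsf and 3 of 22 Rbm genes, which made 12 of 45 (26.7%), against 17.0% of all WT-marked genes. A peak within reach of another protein-coding gene was found at 10 of the 15 Hnrnp genes (66.7%), 2 of 8 Srsf and 5 of 22 Rbm genes, in all 17 of 45 (37.8%), against 31.8%. The neighbours include Gla at Hnrnph2, Rpgrip1 at Hnrnpc, Cbx3 at Hnrnpa2b1, Axl at Hnrnpul1 and Cbx5 at Hnrnpa1. Either end of a neighbour's span counted, so a shared peak need not lie at the neighbour's promoter. At these genes the span-end rule does not assign the mark to 1 gene.

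Hnrnpc, whose protein binds uridine runs and packages nascent transcripts, stood at 6.34 in WT, 7.67 in KO and 4.70 in DKO. Its KO peak ranked 47 of 918 and was the highest of the 70 genes in that list. The other Hnrnp gene called in KO was Hnrnpa0, with 3.87 in WT, 3.86 in KO and 3.18 in DKO. Its DKO peak lay near the other end of the span, with the summit 1799 bases downstream of the start. WT had a lower peak of 3.46 there, and no DKO peak was called near the start. Hnrnph2, an X-linked gene whose protein binds guanine runs, had the highest WT value of the family at 6.67, and 3.68 in DKO. Hnrnpul1 stood at 4.96 and Hnrnpll, known for its role in CD45 splicing in T cells, at 4.45 in WT and 4.31 in DKO. The WT peak of Hnrnpll was 1859 bases long and that of Hnrnpul1 1585, the longest at these genes after Srsf3, ahead of Rbm27 (1441) and Srsf11 (1257).

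Other Hnrnp genes were lower: Hnrnpr had 4.30 in WT and 3.96 in DKO, and Hnrnph3 had 3.93 and 3.66. Hnrnpa1, whose protein often counters SR proteins in splice site choice, had 3.91 and 3.43. At Hnrnpm (3.39 in WT, 4.82 in DKO) and Hnrnpa3 (3.64, 4.40), the DKO value was the higher one. With Hnrnpc, these held the 3 highest DKO values of the family at span ends. Hnrnpab (3.96), Hnrnpdl (3.94) and Hnrnpul2 (3.36) were called in WT alone.

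The Rbm genes had the highest WT values, with a median of 5.44 and a median percentile of 72.8. Rbm27, whose protein links polyadenylated nuclear RNA to the exosome, had the highest of all 70 genes in WT: 7.66, with 6.48 in KO and 5.12 in DKO. Rbm25, a splicing factor of the U1 complex, had 7.10, 5.33 and 5.59. The nucleolar gene Rbm28 had 7.06 in WT, no KO peak and 3.85 in DKO. Rbm5, a regulator of exon choice in apoptosis genes, had 6.83 in WT and 5.00 in DKO, also without a KO peak. Rbm12 had 6.56 in WT, 4.59 in KO and 7.08 in DKO, where its peak ranked 47 of 6418. The window of Rbm12 overlaps that of Cpne1, so the peak counts for both genes.

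The remaining Rbm genes called in KO were Rbm4 (5.55 in WT, 4.73 in KO, 3.41 in DKO), Rbm14 (5.17, 4.27, 3.58) and Rbm39 (4.03, 4.42, 4.10). Rbm14 encodes a paraspeckle protein and Rbm39 a partner of the U2AF splice site factors. Besides Rbm28 and Rbm5, 12 Rbm genes were called in WT and DKO but not in KO, from 6.52 and 5.32 at Rbm34 to 3.29 and 3.59 at Rbm15. They include Rbm8a, a core part of the exon junction complex (6.49 in WT, 5.58 in DKO), Rbm19, a ribosome assembly factor (6.45, 4.53), and Rbm17, a splicing factor (5.33, 3.76). They also include Rbm10 (5.06, 4.38) and Rbm7, a part of the nuclear exosome targeting complex (4.87, 4.23). Rbm4b (4.22) and Rbm22, a part of the active spliceosome (3.45), were called in WT alone. The highest 3 values of the family in DKO were those of Rbm12, Rbm25 and Rbm8a.

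The KO value was above the WT value at 4 of the 11 genes called in both (36.4%): Srsf3, Srsf5, Hnrnpc and Rbm39. Over all 697 genes called in both, the share was 20.5%. The DKO value was above the WT value at 10 of 36 genes (27.8%), against 16.5% of 4638 genes. Each value is relative to the background of its own library, and the counts compare values of different libraries that are not scaled to each other. They are thus not amounts of H3K4me3. Over all peaks of a list, the median fold enrichment was 4.42 in WT, 4.70 in KO and 3.88 in DKO. Among the genes marked at span ends, the median fold enrichment was 4.45 in WT, 4.73 in KO and 4.10 in DKO. Over all genes marked at span ends it was 4.72, 4.60 and 4.03. The peaks at these genes were longer than those at all genes, with median lengths of 631 against 553 bases in WT (57 peaks), 521 against 389 in KO (11 peaks) and 483 against 442 in DKO (41 peaks).

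The promoters of 3 genes with a KO peak, 1 from each family, are printed to show the sequence next to the H3K4me3 peaks that were still called. They are the 250 bases before the annotated start, from RefSeq for GRCm38.p6, 5′ to 3′ on the gene's strand: Srsf5 chr12:80945249-80945498 on the plus strand, Hnrnpc chr14:52104022-52104271 and Rbm4 chr19:4794010-4794259 on the minus strand. Capitals mark matches, on either strand, to 4 motifs: the GC box GGGCGG, the box named for its letters CCAAT, the core of ETS factor sites CCGGAAG, and the TATA box TATAAA. Rbm4 was taken after its values were seen, since the Rbm25 peaks lie 2450 to 2720 bases upstream of that gene's listed start.
Srsf5: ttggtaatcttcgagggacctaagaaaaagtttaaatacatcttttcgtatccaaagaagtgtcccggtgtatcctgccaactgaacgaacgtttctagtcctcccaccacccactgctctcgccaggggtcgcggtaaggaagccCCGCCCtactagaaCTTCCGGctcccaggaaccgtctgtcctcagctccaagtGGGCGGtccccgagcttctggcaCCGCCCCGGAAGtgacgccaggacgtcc
Hnrnpc: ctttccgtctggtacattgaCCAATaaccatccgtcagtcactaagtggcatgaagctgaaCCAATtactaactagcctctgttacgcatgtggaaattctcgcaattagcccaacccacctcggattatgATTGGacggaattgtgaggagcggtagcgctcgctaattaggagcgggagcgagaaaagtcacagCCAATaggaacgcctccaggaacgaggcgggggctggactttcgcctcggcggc
Rbm4: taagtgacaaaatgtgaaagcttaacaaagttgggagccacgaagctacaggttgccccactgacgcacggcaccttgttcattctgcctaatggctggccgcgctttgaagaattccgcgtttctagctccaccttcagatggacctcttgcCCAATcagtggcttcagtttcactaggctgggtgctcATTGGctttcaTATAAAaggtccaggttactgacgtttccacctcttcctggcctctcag

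These 3 promoters differ in their motifs. Srsf5 holds 3 GC boxes and 2 ETS cores, and the last GC box overlaps the ETS core that begins 23 bases before the start. Hnrnpc holds 4 CCAAT boxes and none of the other motifs in the printed stretch. Rbm4 holds 2 CCAAT boxes and a TATA box that begins 49 bases before the start. In KO the summits of Srsf5, Hnrnpc and Rbm4 lay 189, 243 and 185 bases downstream of these starts.

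The ends of a gene span are not always where transcription of the main form starts. RefSeq start sites were at hand for 60 of the 70 genes; Rbm44, Rbm8a, Rbm12b1, Rbm12b2, Rbm27, Rbm22, Rbm20, Rbm3, Hnrnpll and Hnrnpul2 had no entry. When a peak within 1000 bases of either a span end or a start site was counted, a rule added after the data were seen, WT H3K4me3 was called at 53 of the 70 genes (75.7%), against 38.3% of all protein-coding genes. The 8 genes that entered were Srsf2 (5.11), Rbm26 (4.84), Rbm47 (5.06), Rbm48 (5.21), Hnrnpf (4.42), Hnrnph1 (5.29), Hnrnpk (5.35) and Hnrnpu (3.06). Each has an annotated start inside its span, and their WT peaks lay 0 to 823 bases from such a start and over 1000 bases from either span end.

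This rule changed the KO counts most. KO peaks were called at 18 of the 53 WT-marked genes (34.0%), against 9.04% of WT-marked protein-coding genes, and DKO peaks at 44 of 53 (83.0%), against 60.3%. The 7 genes that entered in KO were Srsf2 (4.25), Rbm15 (4.40), Hnrnpu (3.31), Hnrnpa2b1 (3.93), Hnrnpa3 (4.06), Hnrnpk (3.53) and Hnrnpul1 (4.25). With them the share kept in KO became 44.4% in Srsf (4 of 9), 28.0% in Rbm (7 of 25) and 36.8% in Hnrnp (7 of 19). The low KO share of Hnrnp genes at span ends thus rested on where the span ends lie. In DKO the shares were 77.8% in Srsf (7 of 9), 88.0% in Rbm (22 of 25) and 78.9% in Hnrnp (15 of 19). Median fold enrichments under this rule were 4.75 in WT, 4.33 in KO and 4.27 in DKO. Over all marked genes they were 4.71, 4.59 and 4.03. In WT and KO the order against all genes was thus the reverse of that at span ends. By family, the WT medians were 4.45 in Srsf, 5.21 in Rbm and 4.28 in Hnrnp.

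Under the wider rule the 70 genes fell into 6 patterns. All 3 genotypes had a peak at 16 genes: Srsf2, Srsf3 and Srsf7, Rbm4, Rbm12, Rbm14, Rbm15, Rbm25, Rbm27 and Rbm39, and Hnrnpa0, Hnrnpa2b1, Hnrnpa3, Hnrnpc, Hnrnpk and Hnrnpul1. These were 30.2% of the 53 genes marked in WT, against 8.55% of all WT-marked genes. For Hnrnpa0 the DKO peak lay near the other end of the span and not near its start. WT and DKO without KO had 28 genes, of which 4 were Srsf, 15 Rbm and 9 Hnrnp genes. WT and KO without DKO had Srsf5 and Hnrnpu, which encodes a nuclear scaffold protein. WT alone had 7 genes: Srsf6, Rbm22, Rbm47, Rbm4b, Hnrnpab, Hnrnpdl and Hnrnpul2. They were 13.2% of the 53, against 39.3%. DKO alone had Srsf1 and Hnrnpd, where a WT peak of 4.81 lay 1079 bases from the start of Hnrnpd. They were 2.86% of the 70 genes, against 1.79% of all protein-coding genes with a knockout peak and no WT peak.

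The last 15 genes had no H3K4me3 peak within the windows in any genotype. The share of all protein-coding genes with this pattern, or with WT and DKO peaks and no KO peak, is not given here. They were Srsf12, the entry Hnrnpa1l2-ps2, and 13 Rbm genes: Rbm3, Rbm11, Rbm12b1, Rbm12b2, Rbm15b, Rbm20, Rbm24, Rbm31y, Rbm38, Rbm41, Rbm43, Rbm44 and Rbm46. Of these, Rbm3, Rbm12b1, Rbm12b2, Rbm20 and Rbm44 had no listed start and were judged at span ends only. A WT peak lay 1577 bases from the span end of Rbm12b2. Among them are genes known for use in certain tissues: Rbm20 and Rbm24 in heart and muscle, and Rbm44 and Rbm46 in germ cells. Rbm3, a gene induced by cold, and Rbm38, a known p53 target, are also among them.

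WDR5 peaks were rare at these genes. Both WT WDR5 lists had a peak at 4 of 70 (5.71%), against 1.48% of all protein-coding genes. Of these 4, Rbm8a and Rbm15 had none in either DKO list (2.86%), against 1.10%. Counting start sites too, Hnrnpl joined them, which made 3 of 70 (4.29%), against 1.17%. Hnrnpa1 and Hnrnpul2 were called in both DKO lists as well (2.86%), against 0.416% of all protein-coding genes. The DKO label says that Wdr5 is deleted there, so their WT calls do not stand apart from a library of that genotype. Whether WDR5 protein remained in these cells was not tested. No Srsf gene had a peak in any of the 4 lists. Pileups at these peaks were 16 to 28 fragments, so each call rests on few fragments.

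At Rbm8a the fold enrichments in WT lists 1 and 2 were 5.90 and 5.18. The WDR5 peak, on chromosome 3 from 96629925 to 96630158, lay inside the WT H3K4me3 peak from 96629401 to 96630619. At Rbm15, which encodes a part of the RNA N6-methyladenosine writer complex, they were 5.77 and 5.05. Its WDR5 peak (chromosome 3, 107333303 to 107333543) had its summit 26 bases upstream of the start and lay between 2 weak WT H3K4me3 peaks (3.17 and 3.29), with gaps of 291 and 239 bases. KO kept an H3K4me3 peak of 4.40 on the gene side, and DKO had one on each side (3.96 and 3.59).

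At Hnrnpl, whose protein binds cytosine-adenine repeats, the WDR5 values were the highest of these genes, 6.62 and 6.37. This peak (chromosome 7, 28810378 to 28810746) lay with its summit 318 bases upstream of the start, and the nearer WT H3K4me3 peak (4.28) ended 143 bases before it. For Hnrnpa1 the WT lists gave 6.15 and 5.90 and the DKO lists 4.98 and 5.16, on chromosome 15 from 103240045 to 103240251, in the gap between H3K4me3 peaks of 2.93 and 3.91. For Hnrnpul2 they gave 6.30 and 6.15, and 4.83 and 4.94, on chromosome 19 from 8819523 to 8819824, with 235 bases under an H3K4me3 peak of 3.20. At Rbm15 and Hnrnpl the WT WDR5 peak thus lay beside the called H3K4me3 and not on it, and at Rbm8a they overlapped. The Hnrnpa1 peak also lay beside H3K4me3 and the Hnrnpul2 peak overlapped it. Since both were called in DKO too, their places cannot be read as those of WDR5.

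**Figure D4:**
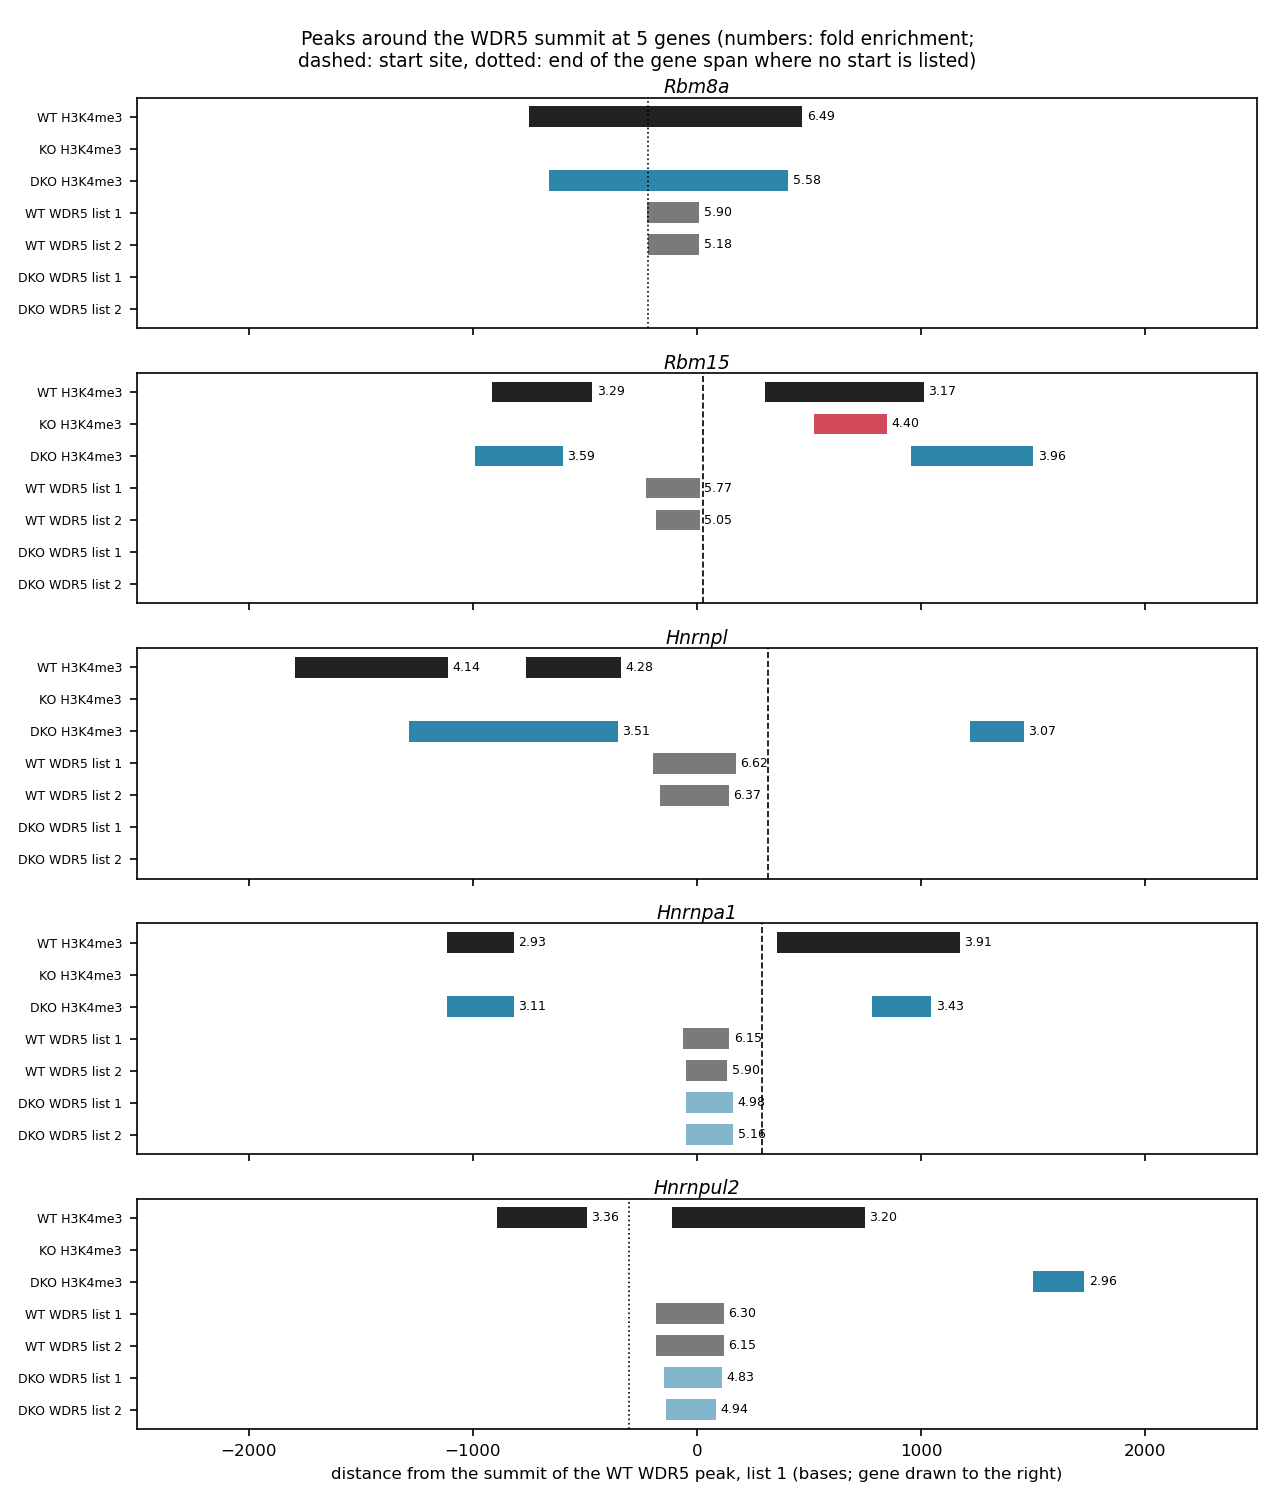
Called peaks of H3K4me3 (WT, KO, DKO) and WDR5 (WT and DKO, lists 1 and 2) around the 5 genes with a WDR5 peak in both WT lists; the x axis is the distance in bases from the WDR5 summit of WT list 1, with the gene drawn to the right, each bar is 1 peak with its fold enrichment, and vertical lines mark the start site (dashed) or the span end (dotted). DKO WDR5 bars are present at Hnrnpa1 and Hnrnpul2 and missing at Rbm8a, Rbm15 and Hnrnpl.

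The promoters under 3 of these WDR5 peaks are printed because the peaks cover part of them: Rbm15 chr3:107333290-107333539 on the minus strand, and Hnrnpl chr7:28810640-28810889 and Hnrnpa1 chr15:103240147-103240396 on the plus strand. They are again 250 bases before the start, from RefSeq for GRCm38.p6, 5′ to 3′, and capitals mark the motifs above and TCGCGAGA on either strand. Hnrnpl and Hnrnpa1 were added after their values were seen, and the Hnrnpa1 peak was also called in both DKO WDR5 lists.
Rbm15: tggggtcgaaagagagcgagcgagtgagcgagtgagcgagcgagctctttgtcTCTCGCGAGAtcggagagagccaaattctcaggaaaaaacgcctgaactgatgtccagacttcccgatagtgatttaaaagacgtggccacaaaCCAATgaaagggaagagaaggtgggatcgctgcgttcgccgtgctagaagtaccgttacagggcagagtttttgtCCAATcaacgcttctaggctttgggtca
Hnrnpl: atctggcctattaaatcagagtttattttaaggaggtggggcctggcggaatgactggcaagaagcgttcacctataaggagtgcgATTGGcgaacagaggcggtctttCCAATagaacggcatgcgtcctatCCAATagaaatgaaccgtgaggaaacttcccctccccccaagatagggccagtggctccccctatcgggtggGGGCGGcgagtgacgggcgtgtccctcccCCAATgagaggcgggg
Hnrnpa1: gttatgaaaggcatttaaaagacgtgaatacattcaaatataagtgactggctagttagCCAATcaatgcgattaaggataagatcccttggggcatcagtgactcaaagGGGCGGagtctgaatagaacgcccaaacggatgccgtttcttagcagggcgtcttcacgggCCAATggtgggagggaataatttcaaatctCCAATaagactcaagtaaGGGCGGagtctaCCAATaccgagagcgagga

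CCAAT boxes are common to all 3, with 2 in Rbm15, 4 in Hnrnpl and 4 in Hnrnpa1. Hnrnpl has 1 GC box and Hnrnpa1 has 2. Rbm15 has the palindrome TCTCGCGAGA, which holds TCGCGAGA on both strands, beginning 197 bases before the start. The WDR5 peak of Rbm15 covered that palindrome and both CCAAT boxes. At Hnrnpl and Hnrnpa1 the peaks of WT list 1 covered 1 CCAAT box each, beginning 164 and 191 bases before the start, and no GC box. The list 2 peak of Hnrnpl ended 175 bases before the start and covered no CCAAT box. Both summits, 318 and 291 bases upstream, lay outside the printed stretches.

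The motifs were then counted in the windows of 250 bases before to 50 after each start. The 60 genes had 77 windows, and windows of 1 gene can share sequence. For these genes, marked here means a WT peak within 1000 bases of a span end or start site. GGGCGG was in 63.6% of these windows, against 46.2% of the 21263 windows of all protein-coding genes. It was in 64.1% of the 64 windows of marked genes, against 65.8% of the 8892 windows of all WT-marked genes, so the gap closed once marked genes were compared. CCAAT was in 48.4% of the windows of marked genes, against 38.4%, CCGGAAG in 20.3%, against 19.9%, and TATAAA in 10.9%, against 6.14%. CACGTG (E-box) was in 7.81%, against 9.84%, AAGATGGC (a YY1-type match) in 4.69%, against 5.34%, and GCGCATGC (an NRF1-type match) in 4.69%, against 5.57%. TGACGTCA (the cAMP response element) was in none, against 3.40%.

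Among the motifs found, TCGCGAGA had the widest ratio. It was in 7 of the 64 windows of marked genes (10.9%), against 2.55% of those of all WT-marked genes. Over all 77 windows of these genes it was in 9.09%, against 1.41% of the windows of all protein-coding genes. These windows belonged to 6 genes: Srsf4, with a match in 2 windows, Srsf10, Hnrnph3, Rbm15, Rbm26 and Rbm39. The 2 windows of Srsf4, with starts at 131873637 and 131873639, share nearly all their bases. All 6 have a WT peak at a span end or start site, and none of the 13 windows of unmarked genes held the motif. By the same rule all 6 were called in DKO, against 83.0% of the 53 marked genes of the families and 60.3% of WT-marked protein-coding genes. Rbm15 and Rbm39 were called in KO as well, against 34.0% of the 53 and 9.04%. The 6 genes thus did not stand apart from the other marked genes of the families. The median GC content was 62.0% in the 77 windows, against 56.3% in those of all protein-coding genes, and 61.5% in the 64 windows of marked genes, against 61.7% in those of all WT-marked genes.

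P53 peaks were not called at any of the 70 genes in any of the 4 P53 lists, against 0.137% of all protein-coding genes with a peak in at least 1 list. With so low a background, a count of 0 among 70 does not set these genes apart. Over all 4 lists, including those of DKO, the P53 peaks nearest to a gene span lay 46762 bases from Rbm27, 47305 from Srsf3 and 74725 from Srsf2. The label says that p53 is deleted in DKO, so the nearest peaks need not be places of P53 binding. At Rbm38, a known p53 target gene in other cells, the nearest lay 2775529 bases away.

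Other genes of RNA splicing were counted with lists written for this purpose with earlier results known. Of 43 genes of the core spliceosome, 38 (88.4%) had a WT H3K4me3 peak at a span end, 11 of these 38 (28.9%) also in KO and 31 (81.6%) in DKO. Of 9 genes for the SR protein kinases and the Tra2 splicing activators, 7 (77.8%) were marked in WT, 3 of them (Clk1, Tra2a and Tra2b) in KO and 6 in DKO. Of 30 other widely expressed RNA-binding protein genes, 21 (70.0%) were marked in WT, 9 of these (42.9%) in KO and 17 (81.0%) in DKO. The shares of these 3 lists in WT, KO and DKO stood above the same backgrounds of 35.5%, 8.98% and 59.8% as those of the Srsf, Hnrnp and Rbm genes.

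Of 20 tissue-restricted splicing regulators, mostly of neurons and muscle, 5 (25.0%) were marked in WT. These were the neural genes Nova1 (5.11) and Srrm4 (4.10), Khdrbs3 (3.68), and the epithelial genes Esrp1 (3.73) and Esrp2 (2.82). None of the 5 was called in KO, and Esrp2 (3.55) was the 1 called in DKO. The KO value was above the WT value at 4 of the 11 core genes called in both, at 0 of 3 kinase and Tra2 genes and at 3 of 9 other RNA-binding protein genes, against the 20.5% of all genes given above. In the core list these were Snrnp40 (6.41 and 6.52), Prpf38b (4.37 and 4.49), Snrpg (5.46 in WT, 7.29 in KO, 5.18 in DKO) and Snrpe (5.48, 6.86, 4.65), where Snrpg and Snrpe encode proteins of the Sm ring of the spliceosomal RNPs. Among the RNA-binding protein genes they were Pcbp1 (4.21, 5.68, 3.35), Tardbp (4.16, 5.28, 4.60) and Ptbp1 (3.06, 4.28, 2.88). Sf3b1, which encodes a branch point factor, had the opposite order, with 7.24, 5.12 and 3.51. WDR5 was called in both WT lists and in no DKO list at 4 core genes: Prpf3 (6.68 and 6.17), Sf3b3 (5.12 and 5.26), U2af2 (4.93 and 4.79) and Snrpd2 (4.47 and 4.39). These were 9.30% of the 43 genes, against 1.10% of all protein-coding genes. Of the 30 other RNA-binding protein genes, Tial1 was such a gene (5.08 and 4.50), Pspc1 was called in all 4 lists (5.74 and 5.25 in WT, 4.56 and 4.51 in DKO) and Khsrp in the DKO lists alone (4.35 and 4.40). P53 was not called at any gene of these lists.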

How the data were processed

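The authors deposited 11 lists of CUT&RUN peaks on mm10, called with no control (q cutoff 0.01, local background over 10 kb, up to 2 duplicate fragments kept), per the file headers. Bowtie2, SAMtools 1.5, bedtools, MACS2 2.1.0 and HOMER are named in the submitters' processing notes. The deposited pileup is a coverage signal at each summit, as the file headers describe it, without scaling for depth. The deposited fold enrichment is a ratio to the background around the peak, and the deposited -log10 p and -log10 q describe each peak. Regions with high background can be called where there is no control, and the number of calls depends on depth.

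Groups were taken from the labels. Peaks were joined to RefSeq spans, start sites and promoters (GRCm38.p6, the mm10 assembly) with Python 3.11.15, pandas 2.3.3 and numpy 2.4.6; windows were 1000 bases. The join was tested on simulated data. Exons and introns were not used here. For 1672 pairs of overlapping promoter windows on opposite strands, 1672 held the same bases.

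The genes, lists and motifs were chosen with earlier results of these data known. Named were genes with a WDR5 or KO H3K4me3 peak, with a knockout peak alone, the 5 highest of each family in WT and 3 in DKO, the 5 longest WT peaks, and the 5 highest in WT without a DKO peak; further genes were named after their values were seen. No test was made: H3K4me3 had 1 library a genotype, and the paired lists share fragments or come from merged runs. Alternatives were other windows, stricter thresholds, single-gene peaks, lists of equal length, and leaving out each list.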

Additional observations from a re-analysis of the deposited data

How the results depend on the processing

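Of 108 alternative values for 15 results, 82 stayed within the set margin (1.5 times for counts) and 26 did not; where a value moved, the cause was not tested unless the setting itself takes peaks away or adds reach. With 500 bases, 24 genes were called in DKO, 21 of them also in WT, and 1 had WDR5 in WT and not in DKO. With 5000 bases, or with the whole span, 19 genes were called in KO, all 19 also in WT. The KO shares of all protein-coding genes were then 4.23% and 3.85%. Peaks with -log10 q of at least 5, or the distance taken from the summit, left 1 gene with WDR5 in WT and not in DKO. With the upper 50% of each list by fold enrichment, 24 genes were called in WT, 6 in KO and 22 in DKO. The shares of all protein-coding genes were then 21.7%, 1.45% and 13.5%. Of the 24 WT genes, 5 were called in KO, against 6.22% of all WT-marked genes, and 15 in DKO, against 48.5%. WDR5 in WT and not in DKO was left at 1 gene, against 0.603%. With peaks at 1 gene only, 29 genes were called in WT, against 24.9% of all protein-coding genes, and 7 in KO, against 2.0%. Of the 29, 7 were called in KO, against 7.8% of all WT-marked genes, and 23 in DKO, against 53.5%. WDR5 in both WT lists was left at 2 genes, against 0.809%. With all 3 H3K4me3 lists held to 918 peaks, the counts were 10 in WT, 8 in DKO, 4 in WT and KO and 6 in WT and DKO. Of all WT-marked genes, 23.8% and 37.4% were then called in KO and DKO. With span ends or start sites, a setting chosen after seeing the data, 18 genes were called in KO, all 18 also in WT. Leaving out any 1 list left the WDR5 counts at 4 and 2 and the P53 count at 0. No paired analysis was possible because no result comes from a test. The KO library had 22.3 M fragments, and a missing peak there does not show that the mark was absent.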
